A study of Mus musculus with 20 samples.

Results

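The regions described here are EGR1-bound sites at the ends of protein-coding genes that had a peak in excitatory but not in inhibitory neuronal nuclei of the mouse brain. They were found by merging the overlapping EGR1 peaks of 4 libraries on chromosomes 1 to 19 and X. A region was kept if both excitatory libraries and neither inhibitory library had a peak in it, and if it lay within 2 kb of either end of a RefSeq protein-coding gene. The rule gave 2156 regions of 144718 EGR1 regions in all, of 22012 EGR1 regions at gene ends, and of 30308 regions with peaks in the excitatory libraries only. The comparison classes were the 11305 gene-end regions with a peak in all 4 libraries, called shared below, and the 28152 excitatory-only regions farther than 2 kb from any gene end, called distal below.

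The data are CUT&RUN libraries, in which an antibody directs a nuclease to its target in intact nuclei and the released DNA is sequenced. The mice were 8 weeks old, whole brains were used, and nuclei were sorted by flow cytometry. All groups carried the same genotype, written Sun1 f/f with Emx1Cre (+). Emx1 is expressed in progenitors of the dorsal forebrain, so Cre under its control acts mainly in the lineage of cortical and hippocampal excitatory neurons and in glia of the same origin, and the conditional Sun1 allele marks the nuclear envelope. The excitatory and the inhibitory group each had 2 libraries for EGR1 and 2 for each of 4 histone marks, H3K4me3, H3K27ac, H3K4me1 and H3K27me3. The labels do not say how the inhibitory nuclei were gated, nor whether the 2 libraries of a group came from different animals, so that any p-value here measures only the spread between these libraries.

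EGR1 is a zinc-finger transcription factor that neurons induce within minutes of synaptic activity, and it binds GC-rich sites in promoters and enhancers. H3K4me3 marks active or poised promoters, H3K4me1 is broad around enhancers and promoter flanks, H3K27ac accompanies active promoters and enhancers, and H3K27me3 is laid down by Polycomb repressive complex at silenced developmental genes. In forebrain excitatory neurons EGR1 is known for its part in synaptic plasticity and memory.

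The deposited lists hold called peaks and no reads, which leaves sequencing depth unknown. The excitatory EGR1 lists held 93858 and 98534 peaks and the inhibitory lists 49899 and 62412, and absence of a peak in an inhibitory list is therefore weaker evidence than presence in an excitatory one. When the same number of strongest peaks, 49899, was taken from each library, the rule gave 743 regions, and 656 of the 2156 regions overlapped one of them. Peaks with a q-value below 0.05 made up 2.57% and 4.94% of the excitatory H3K27ac lists against 31.8% and 35.1% of the inhibitory ones. For H3K4me1 they made up 0.0087% and 0.219% against 1.43% and 9.6%. For H3K27me3 they made up 0.00647% and 0.00488% against 0.0099% and 0.00827%. Marks at the starts of defining genes did not separate the labelled types in the direction of the labels over whole lists. Of 27 excitatory forebrain genes, H3K4me3 covered more in both excitatory than in both inhibitory libraries at 5 and less at 8, and of 21 inhibitory genes more at 6 and less at 2. For H3K27ac these counts were 3 and 4 for the excitatory and 3 and 1 for the inhibitory list, and for H3K4me1 2 and 13, and 3 and 5. Single genes went either way. H3K4me3 covered 17.4% and 16.9% of the 2 kb around a start of Lhx6, a transcription factor of interneurons, in excitatory libraries and 87.2% and 91.9% in inhibitory ones. At Neurod6, of excitatory forebrain neurons, it covered 42.2% and 64.0% against 16% and 0%. At Slc17a7, the main vesicular glutamate transporter gene of the cortex, the order was the other way, 7.25% and 23.6% against 35.4% and 44.9%. At Slc32a1, the vesicular GABA transporter gene, H3K4me3 covered 12.5% and 30.9% in excitatory libraries against 9.20% and 0% in inhibitory ones, and no H3K27ac peak was listed there in any of the 4 libraries. The groups are accordingly named as labelled.

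Promoter sequence from the RefSeq tables of GRCm38.p6, the assembly behind mm10, was on hand for 172 genes whose window of 250 bases before to 50 bases after an annotated start overlapped one of the regions. These were 181 windows. They were searched on both strands for GCGNGGGCG, the 9-letter consensus bound by EGR-family proteins, whose reverse complement is CGCCCNCGC. A match was found in 20 of the 181 windows (11%), against 11.6% of the 9542 windows at shared regions, 2.27% of the 8686 windows outside any EGR1 region and 7.60% of all 21045 windows. The match lay inside the EGR1 region itself in 11 of the 20. These shares of windows with a match are not adjusted for CG content, by which they are split below. The windows of the excitatory-only regions were poor in CG pairs, with a median of 9 per window, against 23 at shared regions, 3 outside EGR1 regions and 13 over all windows.

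The sequences below are the 250 bases before a listed start, which need not be the outer start of the gene. Every CG pair is in capitals, and the motif match is in an unbroken run of at least 9 capitals. All the sequences come from excitatory-only regions, so they do not show the contrast with shared regions. They show windows rich and poor in CG pairs, and not in their usual proportion. Windows with 26 or more pairs, as at Lhx2, Emx1 and Tle4, made up 11.6% of the excitatory-only windows. Lhx2, Emx1 and Tle4 carry a match inside the region, and Tbr1, Tenm4 and Nhlh1 carry none in the window. Emx1 and Tle4 were picked for their matches after the search; the others belong to the genes named by the rule given under the processing. All are written 5′ to 3′ on the gene's own strand.
Lhx2 (chr2:38339031-38339280, mm10, plus strand): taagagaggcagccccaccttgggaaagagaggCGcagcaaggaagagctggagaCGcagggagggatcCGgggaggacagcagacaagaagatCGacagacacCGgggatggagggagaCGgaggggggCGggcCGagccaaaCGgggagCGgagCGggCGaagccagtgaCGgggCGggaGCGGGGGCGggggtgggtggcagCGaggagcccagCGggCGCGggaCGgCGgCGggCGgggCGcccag
Emx1 (chr6:85187681-85187930, mm10, plus strand): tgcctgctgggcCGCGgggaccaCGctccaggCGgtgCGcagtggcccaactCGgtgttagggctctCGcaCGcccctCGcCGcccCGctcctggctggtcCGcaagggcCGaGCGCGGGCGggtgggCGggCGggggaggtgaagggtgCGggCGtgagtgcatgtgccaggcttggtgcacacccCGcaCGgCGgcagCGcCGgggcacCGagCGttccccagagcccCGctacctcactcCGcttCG
Tle4 (chr19:14597214-14597463, mm10, minus strand): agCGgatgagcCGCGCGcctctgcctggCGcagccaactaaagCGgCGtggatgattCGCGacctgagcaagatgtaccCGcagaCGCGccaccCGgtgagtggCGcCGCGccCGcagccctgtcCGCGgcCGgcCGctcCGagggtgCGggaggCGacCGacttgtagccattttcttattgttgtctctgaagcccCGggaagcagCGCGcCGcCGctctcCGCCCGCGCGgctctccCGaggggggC
Tbr1 (chr2:61804203-61804452, mm10, plus strand): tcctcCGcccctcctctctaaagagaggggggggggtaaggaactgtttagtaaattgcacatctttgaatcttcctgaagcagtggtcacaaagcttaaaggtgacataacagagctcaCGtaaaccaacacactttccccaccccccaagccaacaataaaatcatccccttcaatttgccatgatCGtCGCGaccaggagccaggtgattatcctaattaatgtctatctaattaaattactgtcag
Tenm4 (chr7:96170994-96171243, mm10, plus strand): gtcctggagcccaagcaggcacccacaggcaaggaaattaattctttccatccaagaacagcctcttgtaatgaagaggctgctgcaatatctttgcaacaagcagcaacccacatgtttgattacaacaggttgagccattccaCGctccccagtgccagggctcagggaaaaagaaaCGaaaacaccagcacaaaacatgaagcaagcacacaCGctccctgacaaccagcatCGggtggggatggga
Nhlh1 (chr1:172057597-172057846, mm10, minus strand): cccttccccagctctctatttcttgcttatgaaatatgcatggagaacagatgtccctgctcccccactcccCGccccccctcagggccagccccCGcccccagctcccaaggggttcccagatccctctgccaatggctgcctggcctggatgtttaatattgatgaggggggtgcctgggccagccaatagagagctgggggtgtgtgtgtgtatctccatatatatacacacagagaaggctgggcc

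Lhx2, a homeobox factor of the developing cortex and hippocampus, had 34 CG pairs in its window, and its match began at base 183. The excitatory EGR1 summits lay at bases 263 and 160 of that window, on either side of the match. Emx1, the factor whose control elements drive the Cre of these mice, had 37 CG pairs and a match at base 114, with summits at bases 301 and -125, counted from the window's first base. Tle4, a corepressor of deep-layer cortical neurons, had 44 CG pairs and a match at base 224, with summits at bases 105 and 83. Tbr1 (7 CG pairs), Tenm4 (6) and Nhlh1 (2) had no match. Tbr1 is a T-box factor of deep-layer excitatory neurons, Tenm4 a teneurin adhesion protein and Nhlh1 a basic helix-loop-helix factor of immature neurons. The Tbr1 and Tle4 windows each belong to a listed start inside the gene. Their regions lay 1341 bp and 609 bp inside the gene from its outer start. The Tbr1 summits lay at bases 127 and 148 and those of Tenm4 at 188 and 150. Absence of the letters says nothing on EGR1 binding outside the window.

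Matches were concentrated in windows rich in CG pairs, which follows in part from the consensus, since it holds CG pairs itself. Of the 21 excitatory-only windows with 26 or more pairs, 13 (61.9%) held a match. Many of these matches lay in the window but outside the EGR1 region. This held at Igsf21, Tle2, Adcy1, Zmym2, Satb1 and 1 gene model that was counted with overlapping windows. The share therefore describes windows and not the bound sites. In that range 784 of 3702 shared windows (21.2%) did, and 1105 of all the 4802 windows (23.0%). Outside any EGR1 region it was 114 of 393 windows (29.0%). With 16 to 25 pairs the shares were 14.7% (5 of 34), 7.42% at shared regions and 9.15% outside. In these ranges windows outside EGR1 regions thus held a match no less often than shared ones. With 6 to 15 pairs it was 1.63% outside against 2.95% at shared regions, and with at most 5 pairs 0.14% against 0.36%. Of 49 excitatory-only windows with at most 5 pairs 1 held a match, and of 77 with 6 to 15 pairs 1 did. With 21 windows the first share rests on few genes, and it is given as a description.

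The regions were narrow and of moderate strength within their own lists. These EGR1 values chose the regions and are descriptions only. The median width was 533 bp (quartiles 419 and 679), against 1059 bp for shared and 543 bp for distal regions. The median fold enrichment, the authors' ratio of signal over background at a peak, was 3.97 in excitatory replicate 1 and 3.77 in replicate 2, against 6.04 and 5.73 at shared regions. Ranked within each list, the median region stood at the 39.1 and 41.5 percentile of fold. Fold ranged from 2.14 to 14.2 in replicate 1 and from 1.76 to 11.2 in replicate 2. The 2 libraries had exactly 1 peak each in 2097 regions (97.3%), and their summits lay within 100 bp of each other in 61.5%. At the edges of the rule, the 424 regions lying 1500 to 2000 bp from a gene end had a median fold of 3.84, and the 402 excitatory-only regions at 2000 to 2500 bp, just outside, had 3.99. A further 1721 gene-end regions with peaks in both excitatory and 1 inhibitory library had a median excitatory fold of 4.01, and 3337 with a peak in a single excitatory and no inhibitory library had 3.23.

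The strongest regions lay beside genes of varied function. The region of highest mean rank, at chr7:44014629-44015549 and 1420 bp inside the 3′ end of the kallikrein gene Klk1b26, had folds of 12.3 and 10. Across an annotated end of Ccdc80, which encodes a secreted matrix protein, the folds were 10.7 and 11.2. Others of the 12 highest were 273 bp inside the 3′ end of Colca2 (11.1 and 9.07), 1118 bp inside the start of Inpp5d, an inositol phosphatase gene of blood cells and microglia (11.2 and 8.83), and 1810 bp beyond the 3′ end of the polarity gene Pard3 (8.95 and 8.52). In all, 530 regions (24.6%) stood above the median fold of both lists.

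Position set these regions apart from shared ones. Only 7.11% of excitatory-only regions lay at gene ends, against 42.9% of the 26345 regions found in all 4 libraries. Among regions whose gene end could be placed by strand, 692 lay at starts alone and 829 at 3′ ends alone, and 635 touched both kinds or a gene without a listed strand. Regions at 3′ ends thus made up 54.5% of the placed ones, against 7.16% of shared regions and 26% of all gene-end EGR1 regions. A listed start base lay inside 137 regions (6.35%), against 68.0% of shared regions. The median distance from region to gene end was 816.5 bp, whereas the median shared region covered a gene end. In all, 1187 regions (55.1%) lay wholly inside a gene, 704 (32.7%) outside genes and 265 across a gene boundary. The files give no exon or UTR positions on this build, and these were not used here.

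**Figure D1:**
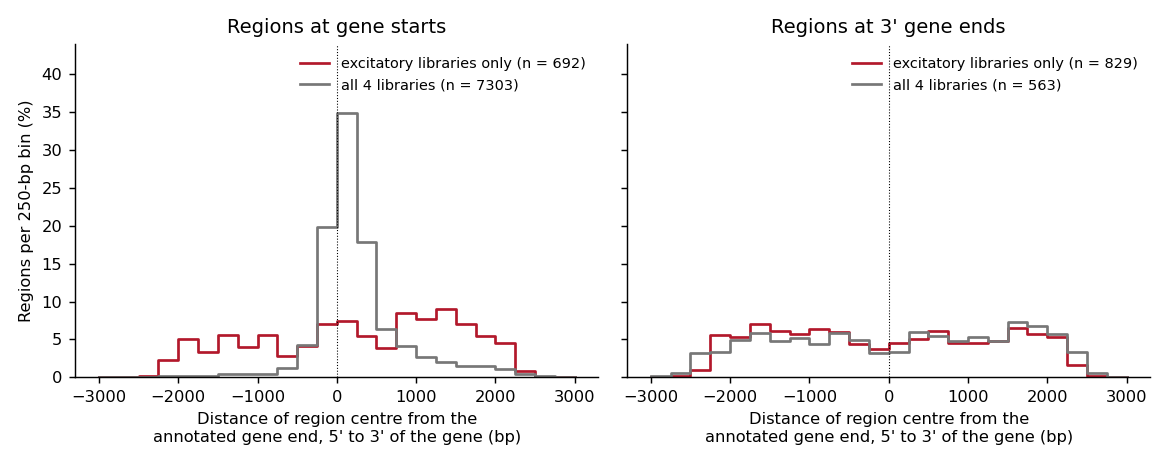
Distance of the centre of each EGR1 region from the annotated gene start (left) or 3′ end (right) in bp, as percent of regions per 250-bp bin, for excitatory-only (red) and shared (grey) regions; centres beyond 3 kb are in the last bin. Within 500 bp of a start lie 24.1% of the excitatory-only and 76.9% of the shared centres, while at 3′ ends the values are 17.6% and 17.6%.

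The plot of distances shows the same contrast base by base. Of the 692 centres placed at starts, 167 (24.1%) lay within 500 bp of the start, against 76.9% of shared centres. At 3′ ends the classes did not differ in this respect, with 146 of 829 (17.6%) and 99 of 563 (17.6%) within 500 bp. These positions come partly from the rule, which admits any region within 2 kb, and no test was run on them.

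The histone marks were measured in libraries that the rule did not use. H3K4me1 showed the widest gap between the types at the excitatory-only regions. It had a peak in 75.4% and 81.6% of them in the excitatory libraries and in 43.5% and 37.4% in the inhibitory ones, means of 78.5% ± 4.40 and 40.5% ± 4.30 (SD, n = 2 each). Both excitatory values lay above both inhibitory values, and the ratio of means was 1.94. At shared regions the values were 56.7% and 62.7% against 55.7% and 51.2%, a ratio of 1.116. At distal regions they were 78.0% and 86.7% against 35.5% and 31.4%, a ratio of 2.46. Over all EGR1 regions the ratio was 1.61, so part of the gap was general to the H3K4me1 lists. Nearly all listed H3K4me1 peaks of the excitatory libraries had a q-value above 0.05, and the shares were not counted with that threshold.

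H3K27ac, the mark of active elements, had a peak at 38.0% and 50.6% of the regions in excitatory and 21.9% and 24.6% in inhibitory libraries, a ratio of 1.91 (1.37 over all EGR1 regions). At shared regions its ratio was 0.975. H3K4me3 had a peak at 33.9% and 51.9% against 28.6% and 26.9%, a ratio of 1.55 (1.08 over all regions), and at 96.4% of shared regions in either type. For both marks the excitatory libraries lay above the inhibitory ones, and they also differed more from each other. H3K27me3, the Polycomb mark, went the other way, with 20.9% and 23.2% against 33.3% and 30.9%. Its ratio of 0.686 was close to the 0.632 of all EGR1 regions. At distal regions the ratios were 2.94 for H3K27ac, 2.13 for H3K4me3 and 0.518 for H3K27me3. Each of these gaps was wider than at the gene-end regions. With 2 libraries a type, 0.333 is the smallest two-sided p of an exact permutation test, so these shares are given with their spread and no test.

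**Figure D2:**
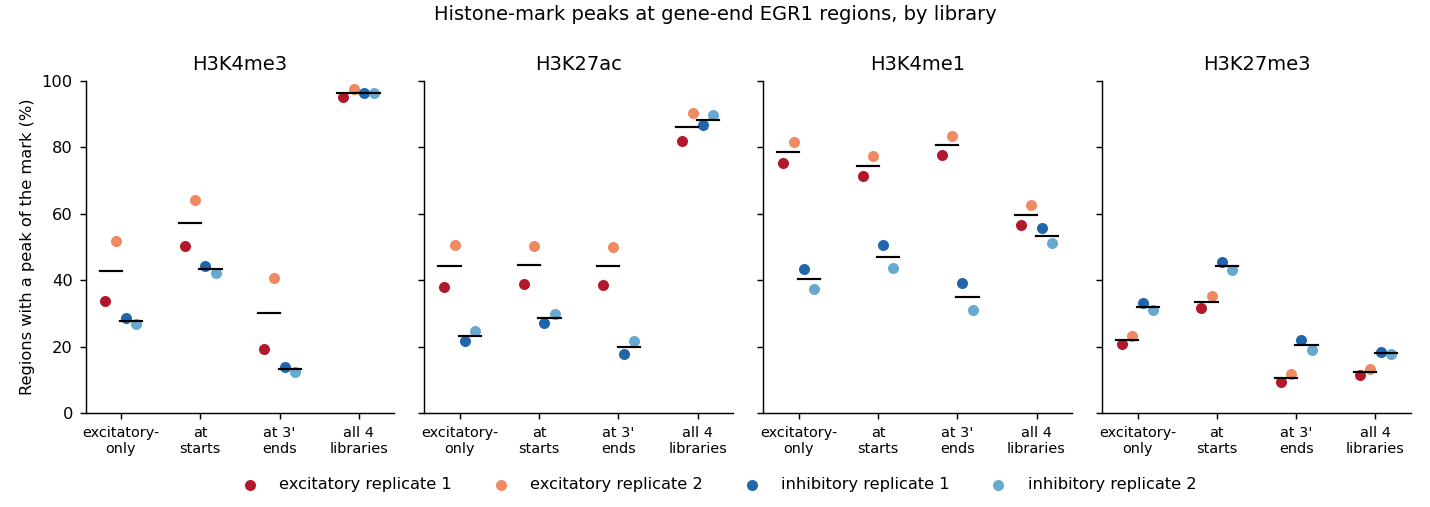
Percent of gene-end EGR1 regions with a peak of each histone mark, 1 point per library and a bar at the mean of the 2 libraries of a type, for excitatory-only regions, those at starts, those at 3′ ends, and regions in all 4 EGR1 libraries. For H3K4me1 the excitatory points at excitatory-only regions (75.4% and 81.6%) stand above the inhibitory ones (43.5% and 37.4%), and at shared regions the types lie within 51.2% to 62.7%.

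These shares depend on how many peaks each list holds. With the same number of strongest peaks from each library of a mark, an alternative chosen after seeing the data, the ratios at the excitatory-only regions were 1.51 for H3K4me1, 1.46 for H3K27ac, 1.45 for H3K4me3 and 0.724 for H3K27me3. Over all EGR1 regions they were 1.21, 1.09, 1.01 and 0.679. The H3K4me1 ratio at shared regions then fell below 1, to 0.766. H3K27ac turned round when only peaks with a q-value below 0.05 were used, which few excitatory peaks have. Its shares became 0.974% and 5.06% in excitatory against 9.37% and 11.7% in inhibitory libraries, a ratio of 0.286 (0.272 over all EGR1 regions). H3K4me3 with the same q-value threshold gave 21.0% and 32.4% against 20.1% and 22.4%, and replicate 1 of the excitatory libraries then lay within the inhibitory range. At the 656 regions that also met the rule with equal EGR1 lists, the ratios with all peaks were 2.13 for H3K4me1, 2.57 for H3K27ac, 2.251 for H3K4me3 and 0.595 for H3K27me3.

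Regions at starts and at 3′ ends carried different marks. H3K4me3 was at 57.4% ± 9.81 of the start regions in excitatory and 43.4% ± 1.43 in inhibitory libraries, and at 30.0% ± 15.2 and 13.2% ± 0.938 of the 3′-end regions (SD, n = 2 throughout). H3K27me3 was more frequent at starts, 33.5% ± 2.45 and 44.4% ± 1.64, than at 3′ ends, 10.6% ± 1.54 and 20.6% ± 2.13. H3K4me1 was frequent at both, with excitatory means of 74.4% at starts and 80.6% at 3′ ends against inhibitory means of 47.2% and 35.1%. Shared regions also had more H3K4me1 at 3′ ends, with means of 85.4% and 77.3%, than at starts, with 57.2% and 50.8%. H3K27ac had nearly equal excitatory means, 44.6% and 44.3%, and inhibitory means of 28.5% and 19.8%.

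**Figure D3:**
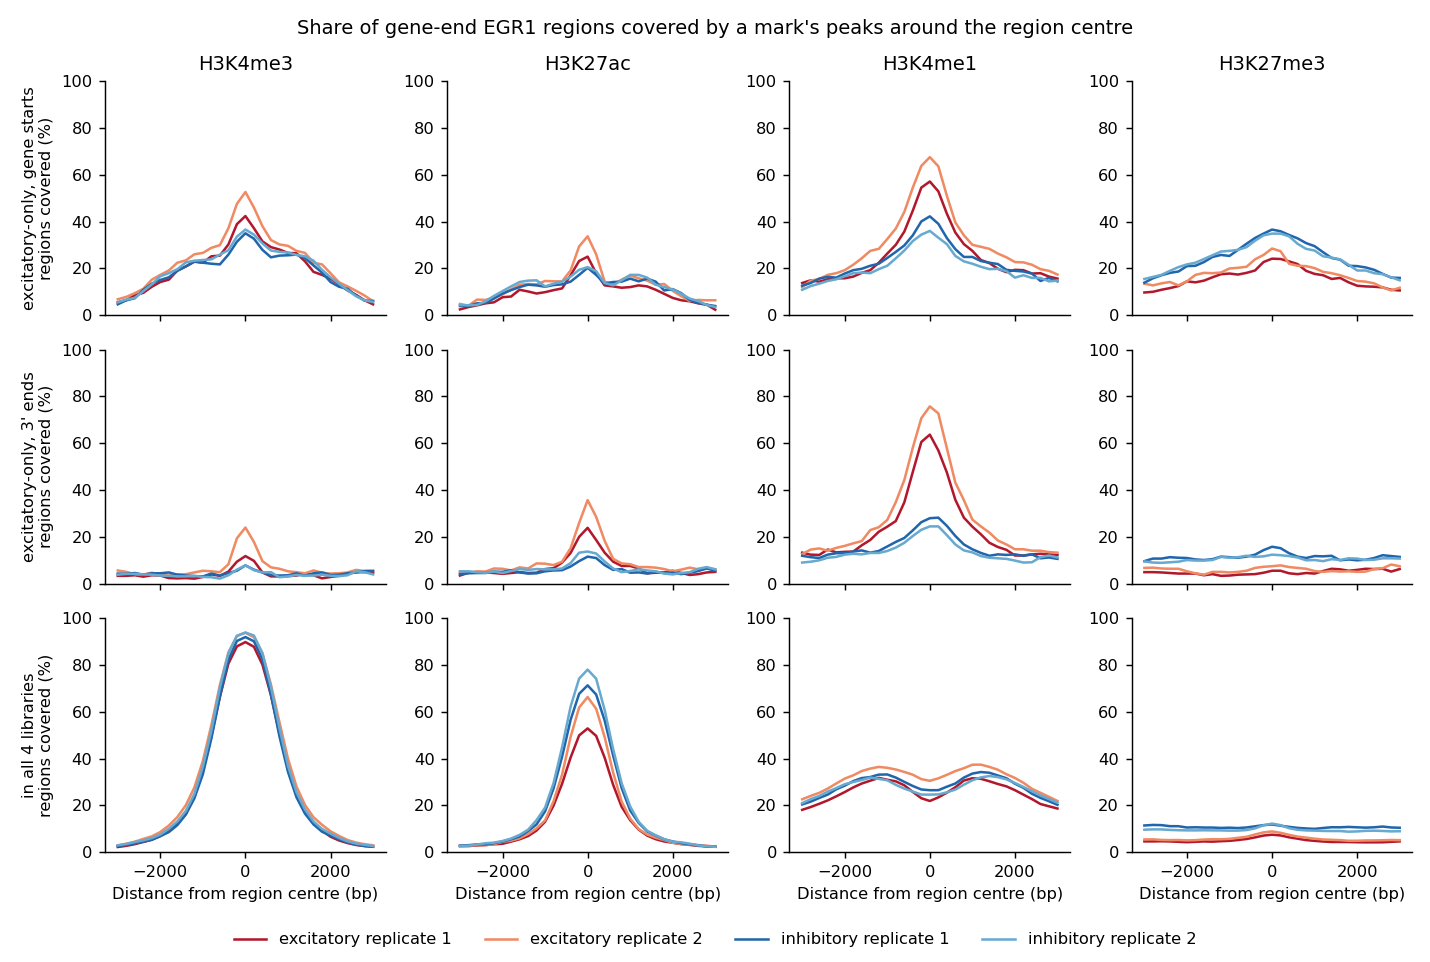
Percent of regions whose position at a given distance (bp) from the region centre lies in a peak of the mark, 1 line per library, for excitatory-only regions at starts (top), at 3′ ends (middle) and shared gene-end regions (bottom). At 3′ ends the excitatory H3K4me1 lines reach 63.7% and 75.8% at the centre against 28.0% and 24.5% for the inhibitory lines, and all 4 lie between 9.05% and 13.3% at 3 kb on either side.

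The difference between types was local to the EGR1 site, as the plot of mark peaks around the region centre shows. At 3′ ends the centre lay in an H3K4me1 peak in 63.7% and 75.8% of regions in excitatory and 28.0% and 24.5% in inhibitory libraries. At 1 kb toward higher coordinates these values were 24.4% and 27.4% against 14.7% and 13.4%, and at 3 kb 12.3% and 13.3% against 10.6% and 11.2%. H3K27ac at the same 3′-end centres stood at 23.9% and 35.7% against 11.6% and 13.8%, and at 3 kb at 5.07% and 6.15% against 5.55% and 6.15%. Shared regions, most of which lay at starts, had a dip of H3K4me1 at the centre, 21.9% and 30.5% against 26.5% and 24.6%. Their flanks at 1 kb stood at 31.6% and 37.4% against 33.6% and 30.8%. This is a contrast of unlike places, since shared regions at 3′ ends were not drawn apart. H3K27me3 at 3′ ends was lower in excitatory libraries at every one of these distances, 5.55% and 7.48% against 15.8% and 12.4% at the centre and 6.27% and 7.48% against 11.5% and 10.7% at 3 kb, so its gap was not local.

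A peak in both excitatory and neither inhibitory library of a mark, the pattern the rule asked of EGR1, was counted next. For H3K4me1 it held at 660 regions (30.6%), where 22.6% of all EGR1 regions had it, and the opposite pattern at 32 (background 2.49%). For H3K27ac it held at 273 (12.7%, background 9.78%) and the opposite at 63 (background 4.67%). These counts used all peaks. With equal numbers of strongest peaks, those for H3K27ac were 164 (7.61%, background 6.46%) and 95 (4.41%, background 6.56%). With q-values below 0.05 they turned round to 2 (0.0928%, background 0.171%) and 96 (4.45%, background 9.63%). For H3K4me1 equal numbers gave 381 (17.7%, background 12.5%) and 111 (5.15%, background 6.70%). Again with all peaks, the counts for H3K4me3 were 184 (8.53%, background 3.73%) and 26 (background 4.26%). For H3K27me3 they were 41 (1.90%, background 1.83%) and 139 (6.45%, background 6.91%). The H3K27me3 shares were thus near those of all EGR1 regions. Over all gene-end EGR1 regions they were 1.77% and 4.03%. At 386 regions (17.9%) all 4 H3K4me3 libraries had a peak. This share was 15.4% of all EGR1 regions, 62.4% of all gene-end EGR1 regions and 92.8% of shared regions. By combination, 613 regions (28.4%) had H3K4me1 in both excitatory libraries and H3K4me3 in neither, and 297 (13.8%) had this in the inhibitory ones. The shares were near the 26.8% and 12.4% of all EGR1 regions but above the 9.22% and 5.40% of all gene-end EGR1 regions. No peak of any of the 4 marks was listed at 49 regions (2.27%) in excitatory and at 492 (22.8%) in inhibitory libraries. All EGR1 regions had 5.82% and 20.99%, and all gene-end EGR1 regions 2.70% and 8.85%. The excitatory share was thus near that of gene-end regions, and the inhibitory share was above it. H3K4me3 and H3K27me3 stood together in both excitatory libraries at 173 regions (8.02%) and in both inhibitory ones at 149 (6.91%). These shares were 2.87% and 3.598% over all EGR1 regions and 9.24% and 10.6% over all gene-end EGR1 regions.

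A fit across regions asked whether single regions differed. For each mark the percent of a 2-kb window around each EGR1 region covered by peaks was compared with limma, with Benjamini-Hochberg adjustment over all regions tested and a threshold of 0.05. No region passed for any mark, neither among the excitatory-only gene-end regions nor among the 63920 (H3K4me3), 84660 (H3K27ac), 123602 (H3K4me1) and 58519 (H3K27me3) regions tested, so that percent called was 0 throughout. The lowest limma adjusted p was 0.107, 0.152, 0.0960 and 0.276 in the same order. Windows with covered bases in at least 2 libraries were tested, which were 1093, 1222, 1946 and 907 of the 2156. At an unadjusted p under 0.05, limma had 257 regions higher and 70 lower in excitatory libraries for H3K4me3, where the shares of all regions tested were 12.9% and 13%. For H3K27ac it had 172 and 94 (all regions 13% and 13.7%), for H3K4me1 342 and 178 (13.3% and 14.9%) and for H3K27me3 89 and 53 (10.2% and 6.67%). A region that passed the filter only through one type had to differ, so these counts are descriptions. Without the filter the median normalized difference over all 2156 regions was 0.025 percentage points for H3K4me3 (all regions 0), 1.82 for H3K27ac (0.575), 5.32 for H3K4me1 (-2.06) and 0 for H3K27me3 (0). Some alternatives let regions pass, and each is given as the count among the excitatory-only gene-end regions with the percent of all regions tested that limma called at an adjusted p under 0.05. For H3K4me3 these were 174 without excitatory replicate 1 (11.1% of all), 206 without excitatory replicate 2 (14.2%), 67 without inhibitory replicate 2 (2.88%), 114 with a block on replicate number (5.73%) and 69 in 5 kb windows (2.52%). For H3K27ac they were 216 without excitatory replicate 1 (18%), 388 without replicate 2 (29.3%), 7 with the block (1.98%) and 31 with only peaks of a -log10 q of at least 1.3 (2.28%). All 31 were higher in excitatory libraries after quantile normalization, as were all 607 called, whereas the unnormalized shares at a q-value below 0.05 were lower. For H3K4me1 they were 341 (16.1%) and 442 (20.5%) without the 1 or the other excitatory library and 164 with the block (9.2%). For H3K27me3, 2 passed with only peaks of a -log10 p of at least 3 (16.3%).

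**Figure D4:**
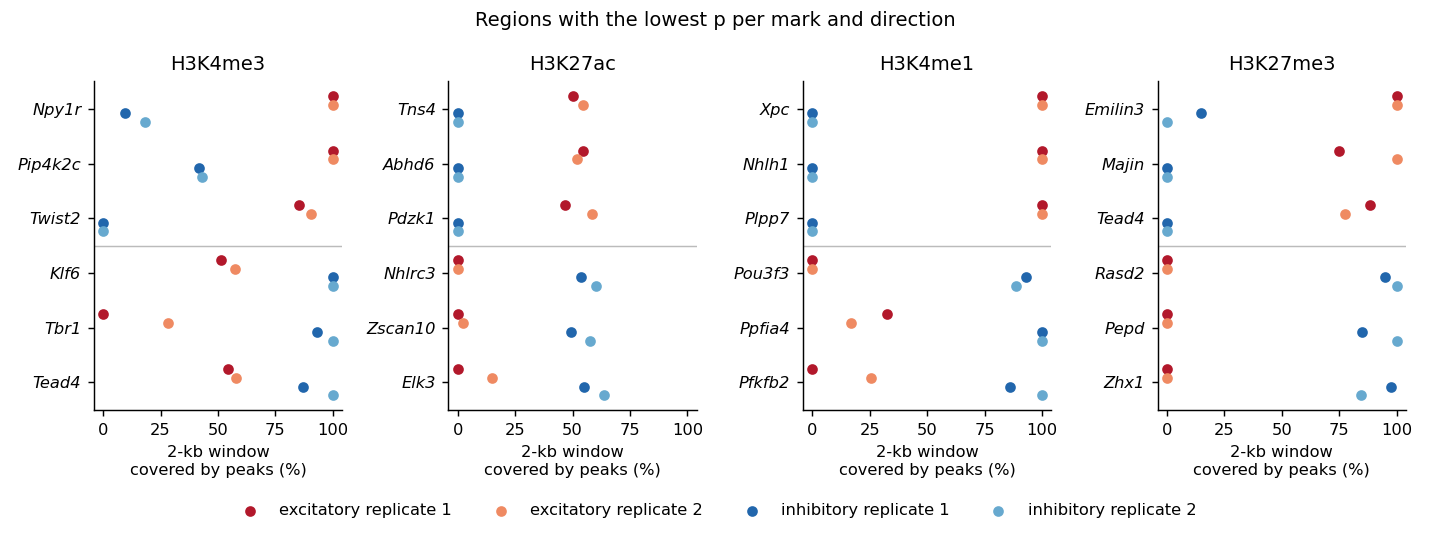
Percent of the 2-kb window covered by peaks in each of the 4 libraries, for the 3 regions with the lowest p per mark higher (above the line) and lower (below it) in excitatory libraries, named by the nearest gene. The types do not overlap in any of them, which follows from choosing regions by p; none passed an adjusted p of 0.05.

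The regions with the lowest p per mark and direction were chosen on these values, and they show what a full contrast looks like. Around Nhlh1, the start of which lies in the region chr1:172057358-172057766, H3K4me1 covered 100% of the window in both excitatory libraries and 0% in both inhibitory ones. The difference after normalization was 89.4 points of coverage ± 12.6 (SE; limma, adjusted p = 0.0960). The same values of H3K4me1, 100% in each excitatory and 0% in each inhibitory library, were found 395 bp beyond the 3′ end of Plpp7, which encodes a phosphatase-like membrane protein, and 510 bp inside an end of Xpc, a DNA damage sensor gene. At both, H3K27ac covered more in excitatory libraries, 33.1% and 44.2% against 0% and 0% at Xpc and 5.10% and 20.1% against 0% and 4.60% at Plpp7. In the opposite direction, H3K4me1 covered 0% and 0% against 93.0% and 88.7% at 1184 bp outside the start of Pou3f3, a POU factor of upper-layer cortical neurons, although EGR1 was listed there in the excitatory libraries only (folds 2.51 and 2.06).

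For H3K4me3, a lowest-p region lay 958 bp inside the start of Npy1r, which encodes a neuropeptide Y receptor. The mark covered 100% and 100% of that window against 9.70% and 18.1%, a limma difference of 87.2 points ± 6.76 (SE, adjusted p = 0.107), while H3K27me3 covered 0% and 54.6% against 73.5% and 79.7%. At Twist2, a mesenchymal bHLH gene, H3K4me3 covered 85.1% and 90.7% against 0% and 0%, and H3K27me3 was present in all 4 libraries at 15.8% to 66.2%. Tbr1 had the reverse at chr2:61804204-61804721, 1341 bp inside the gene from its start. H3K4me3 covered 0% and 28.1% in excitatory and 93.0% and 100% in inhibitory libraries there, and H3K27me3 covered 61.7% to 100% in all 4. Around Klf6, a zinc-finger gene, H3K4me3 covered 51.3% and 57.6% against 100% and 100%. Both orders of the promoter mark appear here because regions were named in each direction, and none passed the adjusted threshold.

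H3K27me3 was absent in excitatory and wide in inhibitory libraries at a few regions. It covered 0% and 0% against 94.8% and 100% at 984 bp inside the start of Rasd2, which encodes the Ras-like protein Rhes of striatal and cortical neurons, where H3K4me3 covered 71.2% and 70.9% against 20.7% and 29.3%. The limma difference in H3K27me3 was -82.4 points ± 18.7 (SE, adjusted p = 0.276). At 1356 bp outside the start of Pepd, the prolidase gene, H3K27me3 covered 0% and 0% against 84.9% and 100%, and H3K4me1 51.6% and 58.1% against 0% and 0%. In the other direction, the region 936 bp inside an end of Tead4, the Hippo pathway factor, had H3K27me3 over 88.5% and 77.4% of its window in excitatory and 0% in both inhibitory libraries, and H3K4me3 over 54.5% and 57.9% against 86.8% and 100%. The H3K27ac regions with the lowest p, higher in excitatory libraries, were at Tns4 (50.4% and 54.5% against 0% and 0%), Abhd6, an endocannabinoid hydrolase gene (54.4% and 52.0% against 0% and 0%), and Pdzk1 (46.7% and 58.4% against 0% and 0%). At each of these 3, H3K4me1 was also wider in the excitatory libraries.

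Genes with such a region at an end numbered 2228 of 21631 protein-coding genes (10.3%), and 1260 of these (56.6%) also had a shared region at an end, against 55.2% of all protein-coding genes. The lists below were counted against that 10.3%, with no test. They were counted again with equal EGR1 lists, where 813 genes (3.76%) had a region. The list of 35 excitatory forebrain neuron genes had 12 (34.3%), and 5 (14.3%) with equal lists. Besides Lhx2, Emx1, Tle4, Tbr1 and Pou3f3 they included the proneural factors Neurog2 and Neurod6, the projection neuron factor Fezf2, the synaptic pentraxin Nptx1 and Fibcd1, a marker of hippocampal CA1 neurons. The list's share stayed above that of all genes under all 10 settings of the EGR1 rule, as did those of 7 other lists, astrocyte genes among them. The list of 30 inhibitory neuron genes had 2 (6.67%), Lamp5 and Tac2, none with equal lists. It was above all genes under 1 of the 10 settings. The 2 lists also differed in shared regions. These lay at an end of 8 inhibitory genes (26.7%) and of 23 excitatory genes (65.7%), against 55.2% of all genes. The low share of the inhibitory list was therefore not particular to excitatory-only regions.

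**Figure D5:**
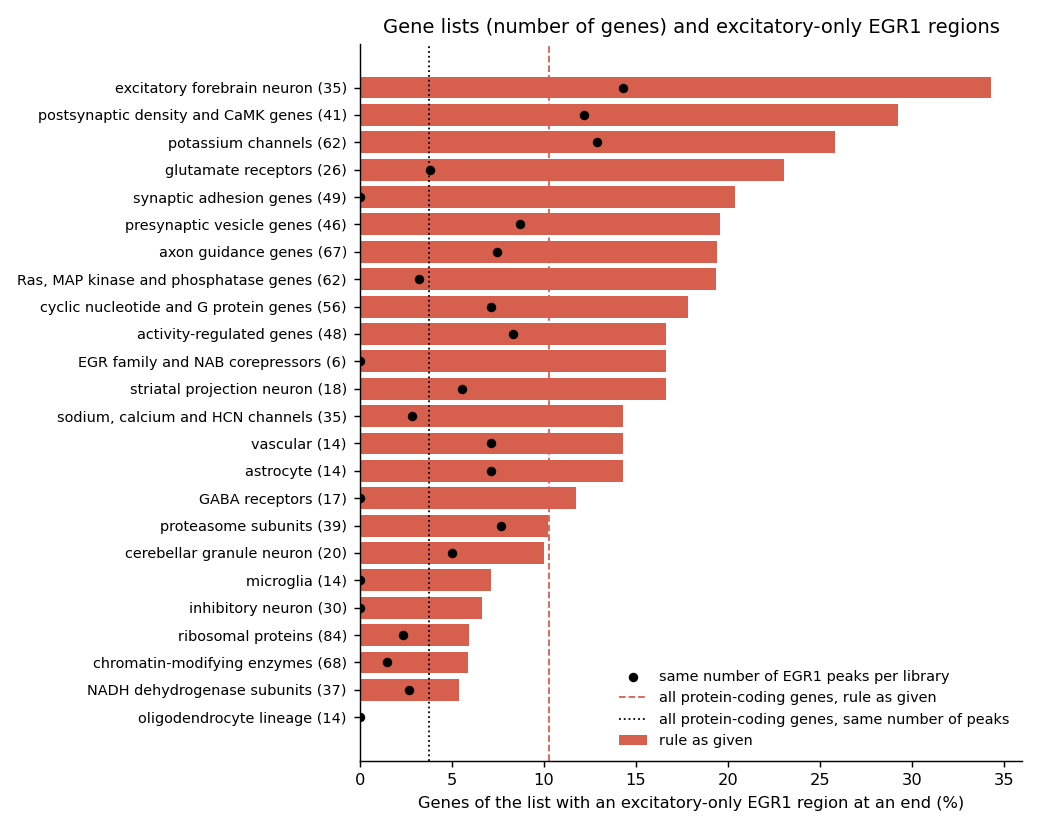
Percent of the genes of each list (number of genes in brackets) with an excitatory-only EGR1 region within 2 kb of an end, by the rule as given (bars) and with the same number of strongest EGR1 peaks from each library (points); lines mark all protein-coding genes. Excitatory forebrain neuron genes stand at 34.3% and 14.3% against 10.3% and 3.76% of all genes, and ribosomal protein genes at 5.95% and 2.38%.

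Among the forebrain factors, the region 937 bp inside the 3′ end of Neurog2 had EGR1 folds of 5.10 and 4.80 in the excitatory libraries, and H3K4me3 covered 45.5% and 53.8% against 42.2% and 51.5%, with overlapping types. The region across the Lhx2 start, chr2:38338989-38340401, had folds of 4.27 and 4.71, and H3K4me3 covered 81.4% and 75.1% of its window against 48.7% and 68.5%. H3K27ac covered 18.2% and 43.8% there against 0% and 0%. The Fibcd1 region, 1307 bp inside the 3′ end, had folds of 6.89 and 4.05 and H3K4me1 over 50.9% and 55.4% against 61.2% and 33.4%. For the inhibitory genes, Lamp5 had H3K4me1 over 94.5% and 82.9% against 99.9% and 85.0%, and Tac2, which encodes neurokinin B, over 58.0% and 86.9% against 0% and 0%.

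Lists of synaptic genes had shares from 11.8% to 29.3% with the rule as given, and with equal lists some fell to that of all genes or to 0. The list of 41 postsynaptic density and CaM kinase genes had 12 (29.3%, and 5 or 12.2% with equal lists): the kinases Camk2d, Camk2g, Camk4, Camkk1 and Camkk2 and the kinase-like Camkv, the calmodulin-binding Nrgn, the AMPA receptor auxiliary subunit Cnih3, and Arc, Dlgap2, Iqsec1 and Lzts1. At Camk2d, 1604 bp beyond the 3′ end, the folds were 6.05 and 4.68, and H3K27ac covered 22.1% and 41.4% against 0% and 0%. At Nrgn, 465 bp inside the 3′ end, the folds were 4.20 and 3.12, but H3K4me3 covered 0% and 0% against 69.7% and 60.4%. Cnih3 had H3K4me1 over 45.3% and 60.4% against 14.7% and 0%. Among 26 glutamate receptor genes 6 had a region (23.1%, and 1 or 3.85% with equal lists, next to 3.76% of all genes). The region 1128 bp inside the 3′ end of Grm2, the presynaptic metabotropic receptor, had folds of 6.74 and 7.32. H3K4me1 covered 33.0% and 68.5% there against 8.40% and 0%, and H3K27ac 20.1% and 19.6% against 0% and 0%. Another Grm2 region, 698 bp outside the start, had folds of 2.62 and 2.54. It had H3K4me1 and H3K27me3 peaks in every library of these marks. At Grm8, 1384 bp inside the start, H3K4me3 covered 76.2% and 59.6% against 11.4% and 21.2%, and H3K27me3 23.4% and 52.1% against 100% and 100%.

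Presynaptic vesicle genes (9 of 46, 19.6%) included Vamp2, the synaptobrevin of neurotransmitter release, where H3K27ac covered 47.0% and 47.2% against 15% and 17.6%. Synaptic adhesion genes had 10 of 49 (20.4%) but none with equal EGR1 lists. At the latrophilin gene Adgrl1, 368 bp beyond the 3′ end, H3K4me1 covered 84.3% and 69.5% against 0% and 1.25%, and at the receptor phosphatase Ptprf 84.0% and 41.5% against 0% and 0%. Axon guidance genes had 13 of 67 (19.4%). At Unc5a, a netrin receptor gene, the H3K4me1 values were 33.8% and 50.2% against 29.6% and 33.7%, with the lower excitatory value next to the higher inhibitory one. GABA receptor genes had 2 of 17 (11.8%, near all genes), Gabrq and Gabbr1, and none with equal lists.

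Potassium channel genes had 16 of 62 (25.8%), and 8 (12.9%) with equal EGR1 lists; 5 (8.07%) had one within 1 kb of an end, against 6.05% of all genes. They included the pore-forming subunits Kcna2, Kcna4, Kcna5, Kcna6, Kcnb2 and Kcnc2, the silent subunits Kcng1 and Kcnv1, Kcnh3, the inward rectifiers Kcnj4 and Kcnj11, the tandem-pore channels Kcnk1 and Kcnk3 and the interacting proteins Kcnip1 and Kcnip2. The stronger Kcng1 region, chr2:168260879-168261426, had folds of 7.4 and 8.3. H3K4me1 covered 67.8% and 69.5% of its window against 0% and 0%, and H3K27ac 24% and 31.3% against 0% and 0%. Another Kcng1 region, chr2:168280882-168281384, had folds of 3.44 and 2.965. It had H3K4me3, H3K4me1 and H3K27me3 peaks in every library of these marks. Kcnip1, 1436 bp beyond the 3′ end, had folds of 11.1, above the list's other regions in replicate 1, and 6.44, below Kcng1 in replicate 2, and no H3K4me3 or H3K27ac peak in any library. At Kcnb2 H3K4me1 covered 44.5% and 75.2% against 0% and 0%. Sodium, calcium and HCN channel genes had 5 of 35 (14.3%), but 1 (2.86%) with equal EGR1 lists, under the 3.76% of all genes. They included Cacng3, which encodes an AMPA receptor auxiliary protein, with folds of 7.0 and 5.5 and H3K4me1 over 26.9% and 78.2% against 0% and 0%.

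Signalling genes followed. The Ras, MAP kinase and phosphatase list had 12 of 62 (19.4%) and 3.23% with equal lists. The region 891 bp beyond the 3′ end of Map2k1, the MEK1 kinase gene upstream of ERK and of Egr1 induction, had folds of 7.29 and 8.24, and H3K4me1 covered 18% and 50.7% against 0% and 0%. At Rps6ka4, a kinase of histone H3, H3K4me1 covered 42.4% and 98.3% against 0% and 0% and H3K27me3 0% and 0% against 100% and 53.9%. Cyclic nucleotide and G protein genes had 10 of 56 (17.9%). At Gng2, a G protein gamma subunit gene, 1756 bp inside the 3′ end, the folds were 9.09 and 7.68 and H3K4me1 covered 61.9% and 53.5% against 14.7% and 0%. At the phosphodiesterase gene Pde4b it covered 28.8% and 33.9% against 0% and 0%, and at the G protein regulator Rgs20 54.4% and 56.3% against 0% and 0%.

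Activity-regulated genes, induced by the same stimuli as EGR1, had 8 of 48 (16.7%) and 8.33% with equal lists, and 83.3% of them had a shared region. They were Arc, Atf3, Ccn1, Dusp1, Dusp6, Klf10, Maff and Mapk4. At Maff, a small Maf factor gene, the region across the gene boundary had H3K4me1 over 77.4% and 67% of its window against 0% and 0% and H3K27ac over 21.8% and 57.5% against 0% and 0%. At Atf3 H3K4me1 covered 31.3% and 26.4% against 0% and 0%. Of the 6 EGR family and NAB corepressor genes, 1 had an excitatory-only region, Nab1, 1123 bp outside the start with folds of 3.29 and 2.44, and all 6 had a shared region.

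Genes of general cell functions were at or under the share of all genes with the rule as given. Ribosomal protein genes had 5 of 84 (5.95%), NADH dehydrogenase subunits 2 of 37 (5.41%), proteasome subunits 4 of 39 (10.3%) and chromatin-modifying enzymes 4 of 68 (5.88%). With equal lists the shares were 2.38%, 2.70%, 7.69% and 1.47% against 3.76% of all genes, so that proteasome genes (3 of 39) then stood above it. With EGR1 peaks of a -log10 q of at least 5, NADH dehydrogenase (13.5%) and proteasome genes (15.4%) stood above the 8.11% of all genes. Shared regions were found at 94.1%, 97.3%, 89.7% and 88.2% of these lists. At Setd7, a lysine methyltransferase gene, H3K4me1 covered 50.3% and 54.8% against 0% and 0%, and at Hdac5, a neuronal histone deacetylase gene, 52.3% and 68.4% against 38.1% and 61.7%, with overlapping types.

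Markers of other cells that a sort could retain were counted in the same way. Astrocyte genes had 2 of 14 (Fgfr3 and Aqp4), vascular genes 2 of 14 (Kdr and Rgs5), microglial genes 1 of 14 (Trem2) and oligodendrocyte genes 0 of 14. Their shares stood above that of all genes under 10 settings for astrocyte, 9 for vascular, 4 for microglial and 2 for oligodendrocyte genes. Striatal projection neuron genes had 3 of 18 (Penk, Rarb and Foxp1) and cerebellar granule neuron genes 2 of 20 (Cbln3 and Fat2), above all genes under 9 and 6 settings. At Trem2, 18 bp outside the start, H3K4me1 covered 71.0% and 61.3% against 40% and 14.7%, and at Rgs5 45.1% and 0% against 0% and 0%. At Penk, the enkephalin precursor gene, H3K27me3 covered 100% in all 4 libraries, and H3K4me3 56.1% and 73.5% against 11.7% and 23.9%. The part of such cells in the regions was not tested.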

How the data were processed

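The study's 20 CUT&RUN libraries, 2 per antibody and nuclear type, were grouped by their titles. Per the submitters' processing notes, the authors listed Trim Galore 0.5.0 and cutadapt 1.18, and also MACS2 2.2.5, Bowtie2 2.3.5, SAMtools 1.12, Picard 2.25.0 and the mm10 build. The sources used here give neither their settings nor control libraries. For every library a peak list was deposited by the authors, narrow for EGR1, H3K4me3 and H3K27ac and broad for H3K4me1 and H3K27me3, with a fold enrichment (a ratio), a -log10 p-value and a -log10 q-value for each peak. The deposited score column and the summit offset of the narrow lists accompany them; the score was not used. Peaks were called per library, so lists differ in length with depth, which is unknown, and a missing peak is not a measured zero. Fold and p described, ranked or filtered peaks within a list only.

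Overlapping EGR1 peaks (at least 1 shared base) were merged, and gene ends came from 21631 RefSeq protein-coding genes of GRCm38.p6. Strand, needed to tell starts from 3′ ends, came from the RefSeq promoter table; 4357 genes had none. A library had a region or a mark if at least 1 base overlapped. For each mark, the percent of a 2 kb window centred on every EGR1 region covered by peaks was fitted after quantile normalization of its 4 libraries, using limma 3.58.1 (R 4.3.3) with a mean trend, for windows covered in at least 2 libraries. Tests were two-sided, adjusted by Benjamini-Hochberg over all regions, with a threshold of 0.05; percentages beside a difference are not normalized. The script was tested on simulated data. The EGR1 peaks chose the regions and entered no test.

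The regions and the 24 gene lists were chosen with earlier results of these data known. Named regions were the 12 with the highest mean rank of fold, the 3 with the lowest p per mark and direction where none passed, and up to 4 genes per list with the highest rank; Gm, Rik and LOC models were left out. Not every gene the rule gave is named, and a few list members are not reported here. Other list members are named by membership, and any other choice is stated where made. The listed gene Tac3 was matched to Tac2 by synonym. Alternatives to each choice, including leaving out each library, are in the closing section.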

Additional observations from a re-analysis of the deposited data

How the results depend on the processing

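The number of regions moved with the EGR1 lists. It was 1621 with EGR1 peaks of a -log10 q of at least 5, and 433 of the 2156 regions overlapped one of these. It was 743 with equal numbers of EGR1 peaks, 1250 within 1 kb and 4172 within 5 kb of a gene end, and 2177 when a library had to cover at least 20% of a region. Without 1 library it ranged from 2687 to 4007, with 4007 and 3944 without excitatory replicates 1 and 2 and 3419 without inhibitory replicate 2, since the rule then asks for fewer peaks or fewer absences. For the marks, limma passed no region in the design used, without quantile normalization, without the filter, in 1 kb windows, or with equal numbers of peaks. In 5 kb windows it passed 69 H3K4me3 regions (2.52% of all regions tested) and 0 for the other marks. With peaks of a -log10 p of at least 3 it passed 2 of 9 H3K27me3 regions tested (16.3% of all 221). With H3K27ac peaks of a -log10 q of at least 1.3, an alternative added after seeing the data, it passed 31 (2.28% of all regions), all higher in excitatory libraries after normalization; the cause was not tested.

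Without 1 library the passing regions ranged from 0 to 206 for H3K4me3, 0 to 388 for H3K27ac, 0 to 442 for H3K4me1 and 0 to 0 for H3K27me3. The highest counts were without an excitatory library, when the lone excitatory library is assumed to vary like the inhibitory pair. Without excitatory replicate 2, 14.2%, 29.3% and 20.5% of all regions passed for H3K4me3, H3K27ac and H3K4me1, and without replicate 1, with 174, 216 and 341 of the excitatory-only regions, 11.1%, 18% and 16.1%. Without inhibitory replicate 2, 67 H3K4me3 regions passed (2.88% of all).

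The labels do not say that a replicate number marks a shared animal or day, and same-numbered libraries hardly deviated together (correlations of 0.0188, 0.0139, 0.0135 and 0.0137 for H3K4me3, H3K27ac, H3K4me1 and H3K27me3). With the replicate block, limma passed 114 H3K4me3 regions (5.73% of all regions), 7 for H3K27ac (1.98%), 164 for H3K4me1 (9.2%) and 0 for H3K27me3. The 24 differences named per mark kept their direction under all 257 fits of an alternative in which the region was tested. They were chosen for the lowest p in these same libraries, so a kept direction is no independent check of them.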

Other observations

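Most genes with an excitatory-only region had 1, but 170 had 2, and 3 had more: Adgrf2, an adhesion receptor gene, had 4, Dhrs9, a retinol dehydrogenase gene, had 3, and Nes, which encodes the intermediate filament nestin of neural progenitors, had 3. These 3 were picked after the counts were seen. The regions lay on every chromosome tested, from 37 on chromosome X to 187 on chromosome 11, where shared gene-end regions numbered 339 and 955.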
